A study of Mus musculus with 4 samples.

Results

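The genes described here encode the proteins of the cytosolic ribosome in V6.5 mouse embryonic stem cells. They were taken by name and level: the mouse symbol had to follow the Rpl or Rps naming pattern without a hyphen, and the gene had to average at least 1000 counts over the 4 libraries. Of 45706 genes in the count table, 88 carried such a symbol and 55 of these met the minimum. The 55 members comprised 35 genes of the large (60S) subunit and 20 of the small (40S) subunit. The annotation lists 53 of them as protein coding and 2, Rps3a3 and Rps4l, as pseudogenes.

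RNA was sequenced from 2 KLF KO libraries collected at 24 h and 2 KLF WT libraries collected at 0 h, each with a replicate A and a replicate B. The 24 h cells had received doxycycline for 24 h, which switched on a lentiviral TRE3G-Cas9-P2A-GFP transgene, and the 0 h cells carried the same transgene without doxycycline. Cells of both groups were selected with puromycin, picked as clones and grown with 2i (inhibitors of MEK and GSK3), LIF and serum on irradiated feeder cells. The titles call all 4 libraries TKO, the 24 h ones also KLF4 KO and the 0 h ones also WT, while the descriptions allow for either of 2 guide sets, 1 for KLF4 and 1 for KLF2, KLF4 and KLF5 at once. Which guides each library carried is thus not settled by the labels. Both 24 h libraries and neither 0 h library had doxycycline, and the knockout, the doxycycline and the 24 h cannot be told apart.

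A ribosome is built from ribosomal RNA and most ribosomal proteins in equal numbers, so most of these genes are expressed in every growing cell and their products are needed in matched amounts. Their mRNAs typically begin with a 5′ terminal oligopyrimidine (TOP) tract, a C followed by a run of C and T, through which LARP1 and mTOR adjust translation. Regulation at this tract acts on translation, which RNA-seq counts do not measure. Ribosomal protein mRNAs have been copied back into the genome many times, and the resulting processed pseudogenes can share long stretches of sequence with the parent gene. A few members also have paralogs that are known to replace them in some cell types, such as Rpl10l and Rpl39l in the male germ line.

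The start of the transcript is a feature of this family that the choice by name and level did not use. RefSeq promoter windows (build GRCm38.p6) were found for 41 of the 55 members. A run of at least 8 C or T bases lay within 50 bases of the start in 34 of the 41 (82.9%), against 35.7% of the 32851 windows of all genes. The longest such run had a median of 10 bases in members and 7 over all windows. The windows below show 15 bases before the start and 15 from it on, 5′ to 3′, with the longest run of C and T in capitals. The first 8 were chosen after the sequences were read, as examples of a run of C and T near the start. In Rpl4 the run lies wholly before the RefSeq start, and in the other 7 it spans it. The GENCODE M21 starts of these 8 genes lie 11 to 281 bases from the RefSeq ones, so which base begins the transcript is not settled here.
Rpl4 (chr9:64173372-64173401, + strand): TTCCTTTTCCTgtgggagcagccgggtaga
Rpl7a (chr2:26910792-26910821, + strand): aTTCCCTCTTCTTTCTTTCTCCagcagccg
Rpl15 (chr14:18270972-18271001, - strand): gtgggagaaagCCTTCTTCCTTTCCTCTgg
Rpl27a (chr7:109519180-109519209, + strand): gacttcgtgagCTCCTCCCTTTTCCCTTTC
Rpl28 (chr7:4792950-4792979, + strand): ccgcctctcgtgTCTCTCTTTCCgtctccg
Rplp2 (chr7:141447636-141447665, + strand): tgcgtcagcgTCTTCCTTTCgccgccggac
Rps9 (chr7:3704026-3704055, + strand): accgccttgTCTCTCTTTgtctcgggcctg
Rps18 (chr17:33955651-33955680, - strand): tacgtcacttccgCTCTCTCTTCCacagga
In Rpl7a the run was 21 bases long, the longest within 50 bases of the start among the 41 members. The next 5 windows belong to paralogs, whose counts are compared with those of their partners further on.
Rpl22l1 (chr3:28805493-28805522, + strand): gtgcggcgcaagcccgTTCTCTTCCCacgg
Rps27l (chr9:66946071-66946100, + strand): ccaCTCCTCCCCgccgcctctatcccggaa
Rpl39l (chr16:10170213-10170242, + strand): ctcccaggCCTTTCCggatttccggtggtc
Rpl7l1 (chr17:46782642-46782671, - strand): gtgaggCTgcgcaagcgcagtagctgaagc
Rpl10l (chr12:66284387-66284416, - strand): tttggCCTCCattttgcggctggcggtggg
The longest run within 50 bases of the start was 10 bases in Rpl22l1, 9 in Rps27l and Rpl39l, 7 in Rpl7l1 and 5 in Rpl10l. The last of these was the shortest among the 41 members.

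Motifs were searched on both strands of the full windows, 250 bases before to 50 bases after the start. CCGGAAG, the core bound by ETS factors such as GABP, was found in 16 of 41 members (39.0%), against 8.86% of all windows. CTTTCC was found in 23 members (56.1%), against 26.6% of all windows, and it can lie within the pyrimidine tract. GGGTGTGG, one form of the CACCC element bound by KLF factors, was found in 1 member (2.44%), against 3.56% of all windows. GGGCGTGG, another form, was found in 2 members (4.88%), against 5.33%. CACGTG, the E-box bound by MYC, was found in 4 members (9.76%), against 7.15%. TATAAA was found in 4 members (9.76%), against 13.6%. A match is a run of letters and not a measured site of binding.

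The libraries held 48599693 and 46031578 counts in 24 h replicates A and B, and 52412844 and 48838606 counts in 0 h replicates A and B. Stem cell identity was checked with 8 markers, none of them at 0, whose summed level was 3899 and 3957 CPM (a gene's counts divided by the scaled library total) at 24 h, against 4459 and 4363 CPM at 0 h. Utf1, Pou5f1 and Zfp42 were past the test and lower at 24 h. Of 12 feeder fibroblast markers, Dcn and Lum had too few counts to be tested and are not in the sum. The others, none at 0, summed to 170 and 165 CPM at 24 h, against 221 and 153 CPM at 0 h. Some RNA in each library thus carried such markers. Pdgfrb alone among them was past the test, and it was lower at 24 h. The part of feeder RNA in the comparisons was not tested. The mRNAs of the targeted genes were still present: Klf4 had 244 and 236 CPM at 24 h, against 331 and 257 CPM at 0 h. Klf5 had 226 and 216 CPM at 24 h, against 431 and 294 CPM at 0 h, and Klf2 had 147 and 152 CPM at 24 h, against 232 and 123 CPM at 0 h. Counts per gene do not show the small insertions and deletions that Cas9 leaves, so these values check little of the knockout. In a bulk sample, fewer cells of a type and less RNA per cell cannot be told apart. The labels call the replicates biological and do not say what separated them, so the p-values measure the spread between these libraries.

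The ribosomal protein genes held close to 2% of the counts in each library. The members held 2.17% and 2.18% of all counts at 24 h, against 2.09% and 2.07% of all counts at 0 h. The groups did not overlap, and the difference of 0.0913 percentage points gave p = 0.333 in an exact 2-sided permutation test over the 4 libraries, the smallest p that 2 against 2 libraries allow. Without the 3 members with most counts, the share was 1.32% and 1.32% at 24 h, against 1.36% and 1.26% at 0 h, and the groups overlapped. A few genes dominated the sum. Rpl4, a large subunit protein of the nascent peptide exit tunnel, alone held 21.2% and 22.2% of the members' counts at 24 h, against 17.7% and 21.8% at 0 h. The 5 members with most counts held 51.4% and 51.1% at 24 h, against 50.7% and 50.9% at 0 h.

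The balance between the subunits was likewise measured within each library, which needs no scaling. The summed CPM of large subunit members was 1.91 and 1.93 times that of small subunit members at 24 h, against 1.75 and 1.94 times at 0 h. The 0 h values lay on either side of the 24 h pair, and the exact 2-sided permutation test gave p = 1. Without 0 h replicate A, the difference between the group means was -0.0256 in place of 0.0706. Without the 3 members with most counts, the ratio was 1.329 and 1.335 at 24 h, against 1.365 and 1.354 at 0 h. There the groups did not overlap, and the exact 2-sided permutation test gave p = 0.333, the smallest it can give.

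Levels of the single genes were far from equal. Per length, as TPM (counts per base of transcript scaled to a common total) averaged over the 4 libraries, the members ran from 19.6 for Rps15a to 8794 for Rplp1, with a median of 315 TPM. Rplp1, Rpl4, Rpl8 and Rps15 were among the 5 highest, and the 5 lowest were Rps15a, Rpl31, Rpl15, Rpl27 and Rpl10. Rplp1, an acidic protein of the stalk that recruits elongation factors, had 9553 and 8837 TPM at 24 h, against 8233 and 8552 TPM at 0 h. Rpl4 had 6711 and 6996 TPM at 24 h, against 5472 and 6565 TPM at 0 h. Each value of Rplp1 was above each value of Rpl4. Rpl8, a large subunit protein near the peptidyl transferase centre, had 3309 and 3134 TPM at 24 h, against 4624 and 3163 TPM at 0 h. Rps15, a small subunit protein near the decoding centre, had 2542 and 2473 TPM at 24 h, against 2768 and 2313 TPM at 0 h. Each library had Rpl8 above Rps15. At the low end Rps15a, a small subunit protein, had 21.1 and 20.8 TPM at 24 h, against 18.8 and 17.7 TPM at 0 h. Its TPM rests on a transcript model of 5179 bases. In counts Rps15a was not the lowest, with a mean of 2212, against 1019 for Rpl31 and 1006 for Rpl27.

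**Figure D1:**
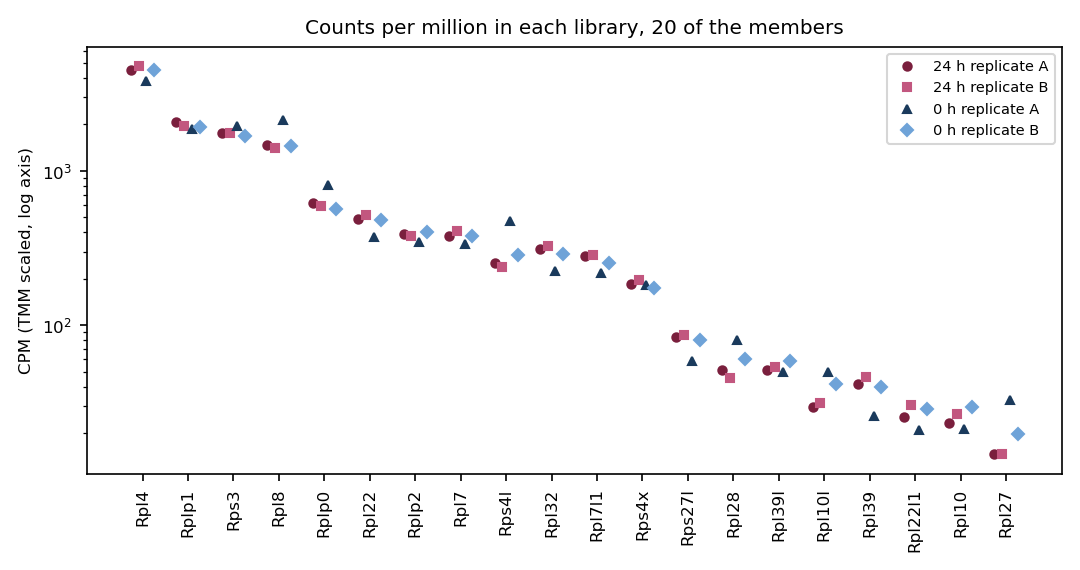
CPM (TMM scaled, log axis) of 20 members in each of the 4 libraries, with genes along the horizontal axis in order of level; circles and squares are 24 h replicates A and B, and triangles and diamonds are 0 h replicates A and B. The 24 h points of a gene lie close together, while 0 h replicate A often lies apart, above the others for Rpl8 and Rps4l and below them for Rpl39 and Rpl22.

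The minimum of 1000 counts split the family near a set of well-known genes. Just inside it were Rpl27, with a mean of 1006 counts, and Rpl31, with 1019 counts. Rpl27 had 723 and 680 counts at 24 h, against 1658 and 962 counts at 0 h, so it met the minimum through 0 h replicate A, and its fold change is tied to the rule and supports nothing here. Rpl31 had 967 and 1014 counts at 24 h, against 1039 and 1055 counts at 0 h. Just outside were Rpl9, with 979 counts, and Rpsa, a 40S protein also known as the laminin receptor, with 932 counts. Rpsa was one of the 3 genes given as markers of the family, with Rpl4 and Rplp0, and thus was not a member by the rule. Of the 33 genes under the minimum, 31 had enough counts to be tested. None passed the Benjamini-Hochberg threshold in edgeR's quasi-likelihood test, 3 had an unadjusted p under 0.05 and all 3 were lower at 24 h, and DESeq2 and limma voom also called 0. Over all genes tested, 6.8% passed edgeR's test and 12.6% were lower at an unadjusted p under 0.05.

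Low counts and shared sequence tended to go together over the whole family, and less so among the members alone. Each transcript was divided into words of 50 bases, the length of a read, and words also present in transcripts of other genes were counted as shared. The members shared a median of 39.0% of their words, and the genes under the minimum shared a median of 72.8%. Among the 83 protein-coding genes of the pattern, the log2 TPM and the percentage of words shared had a Pearson r of -0.365 and a Spearman rho of -0.361 across genes, which are not independent replicates. Within the 55 members alone, r was -0.194 and rho -0.176. Over the 83 genes with counts taken per unshared word in place of length, r was 0.0226 and rho -0.0123. That division, however, raises the level of a gene with many shared words by construction. The 90th percentile of the levels was 181 times the 10th percentile in TPM and 111 times in counts per unshared word. How reads with several matches were counted is not given in the sources used here.

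**Figure D2:**
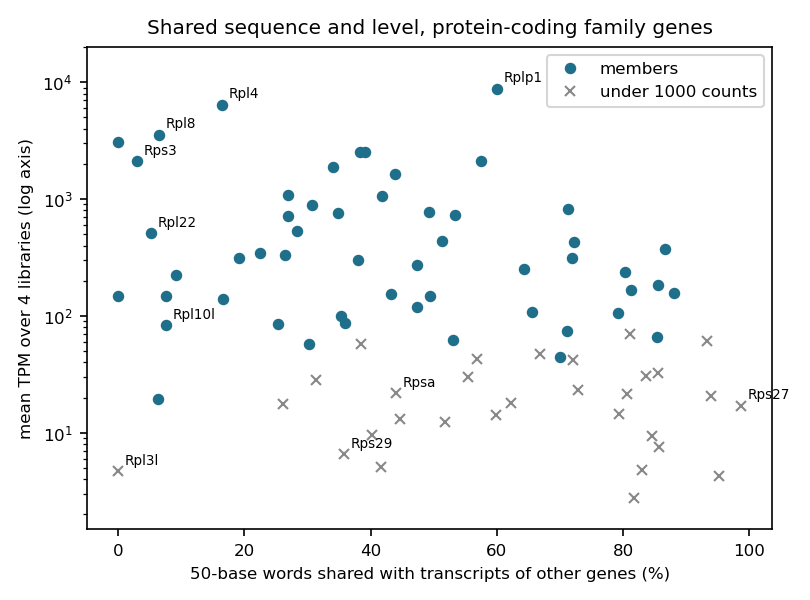
Mean TPM over the 4 libraries (log axis) against the percentage of 50-base words shared with transcripts of other genes, for protein-coding genes of the family; circles are members and crosses are genes under 1000 counts. Most crosses lie at over 40% of words shared, while Rpl4, Rpl8 and Rps3 lie at high TPM and under 20%.

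Copies of these genes drew many counts of their own. The 461 annotated pseudogenes that shared at least 50 words with a family gene held 0.817% and 0.828% of all counts at 24 h, against 0.686% and 0.767% at 0 h. In 36 cases the copy averaged more counts than its parent gene. The copies with most counts are named here after their values were seen. Rpl14-ps1 averaged 42114 counts over the 4 libraries, and Gm14303, which shares 122 words with Rps29, averaged 35118 counts where Rps29 itself averaged 56 counts. With copies added to their parents, 21 of the 33 genes under the minimum reached 1000 counts, and the 90th percentile of the levels was 58.7 times the 10th. More than 50% of words were shared in 20 members, whose counts are therefore uncertain. The spans of 34 members overlap another annotated gene, 23 of them on the same strand. Overlap of exons was not measured, so the effect of these overlaps on the counts is not known. The strand setting of the counting is not given in the sources used here.

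Few members differed between the groups beyond the spread of the replicates. Across all 18005 genes in edgeR's quasi-likelihood test, at a Benjamini-Hochberg adjusted p under 0.05, 6.8% were called, 4.15% higher at 24 h and 2.65% lower. Among the 55 members, 0 were called higher and 1, Rpl10l, was called lower. An unadjusted p under 0.05 was reached by 6 members, 1 higher and 5 lower, where the share over all genes was 25.8%, 13.2% higher and 12.6% lower. DESeq2 called 0 members higher and 4 lower, with 11% of all genes called, and limma voom called 0, with 6.03% of all genes called. The call of Rpl10l and the counts rest on which libraries were used: leaving out 24 h replicate A left 0 members called and 3.02% of all genes, and leaving out 24 h replicate B left 0 and 2.7%. Without 0 h replicate A, 7 were higher and 8 lower, with 32.2% of all genes called. Without 0 h replicate B, 25 were higher and 20 lower, with 50.2% of all genes called.

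The fold changes of the members lay close to 0. Their median log2 fold change, 24 h over 0 h, was 0.05, and that of all genes tested was -0.0067. The quartiles of the members lay at -0.15 and 0.16, and those of all genes at -0.25 and 0.26. Of the 55 members, 39 lay within 0.25 of 0 and 50 within 0.5, and 0 were past a 2-fold change. The standard errors ran from 0.0894 to 0.230, with a median of 0.127. The 95% interval lay within 1 log2 unit of 0 in 53 members and within 0.5 in 32, so changes of 2-fold or more lay outside the interval for most members, while changes of 0.25 log2 units were often within it. Medians were 0.05 for the 35 large subunit members and 0.03 for the 20 small subunit members. The groups did not overlap and the 24 h libraries were higher in 20 members, against 29.3% of all genes, and lower in 7 members, against 29.5% of all genes.

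**Figure D3:**
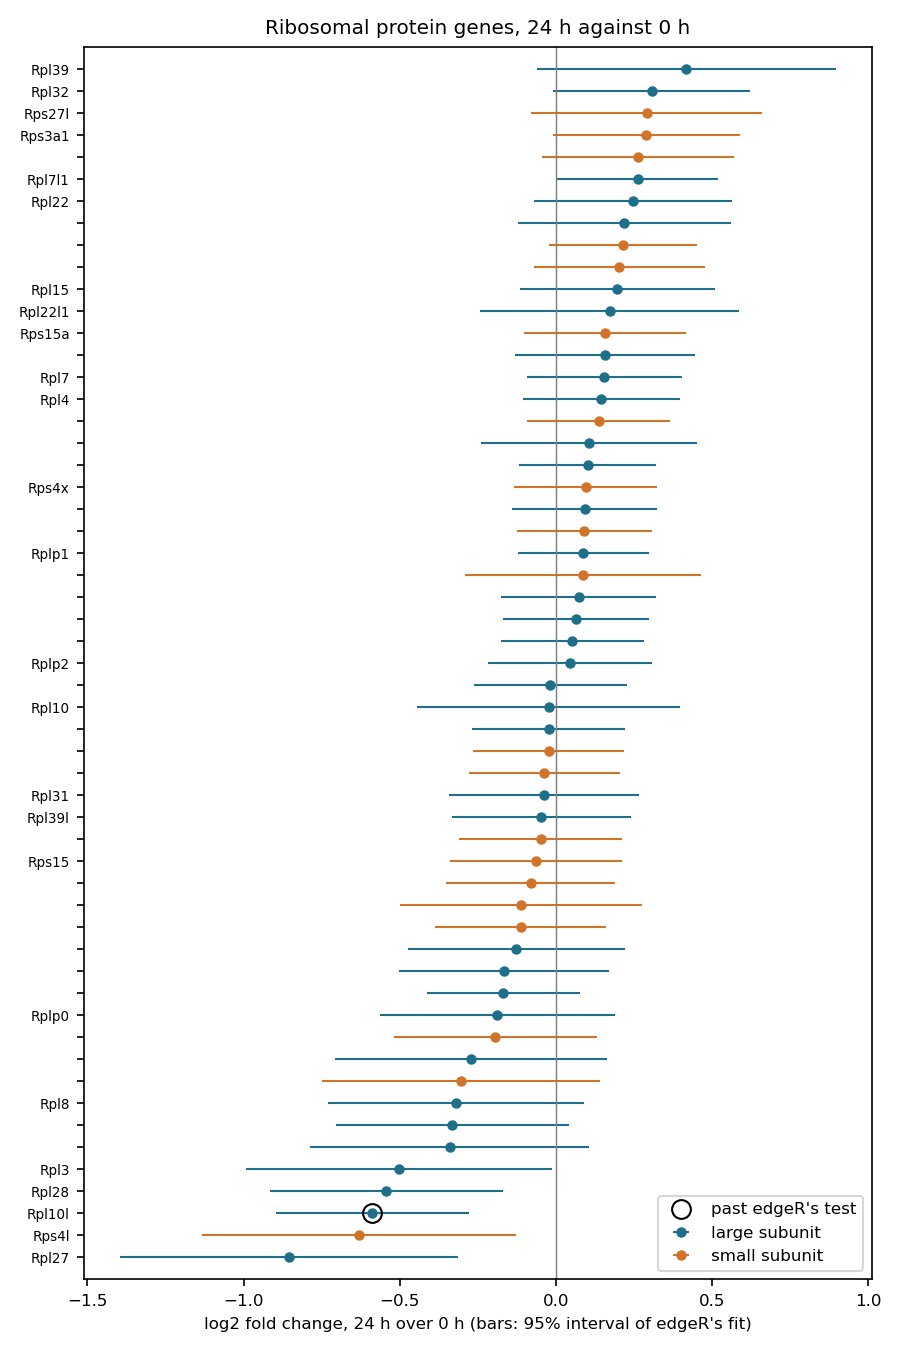
Log2 fold change, 24 h over 0 h, of the 55 members in edgeR's fit, ordered by value, with 95% intervals as bars; blue marks large subunit genes and orange small subunit genes, and the ring marks the member past the test, with labels for some of the genes. Values run from -0.85 for Rpl27 to 0.42 for Rpl39, and most intervals cross 0; Rpl27 met the count minimum through 0 h replicate A.

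Of the stalk proteins, none passed the test. Rplp0, the base on which the other stalk proteins sit, had 615 and 591 CPM at 24 h, against 804 and 568 CPM at 0 h. The 0 h libraries lay far apart, one above and one below the 24 h pair, and the log2 fold change was -0.19 ± 0.16 (SE; edgeR's adjusted p = 0.493). Rplp1 had 2077 and 1948 CPM at 24 h, against 1872 and 1914 CPM at 0 h. The groups did not overlap, with a log2 fold change of 0.09 ± 0.09 (SE; edgeR's adjusted p = 0.567). Rplp2, its partner in the stalk dimer, had 392 and 379 CPM at 24 h, against 344 and 404 CPM at 0 h, and the groups overlapped.

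Among the other large subunit proteins, the extremes of the family were found at modest counts. Rpl10l (chr12:66283379-66284401, − strand, GRCm38) had 29.6 and 31.1 CPM at 24 h, against 49.8 and 41.6 CPM at 0 h. Both 24 h libraries lay below both 0 h libraries, and the log2 fold change was -0.59 ± 0.13 (SE, 95% interval -0.90 to -0.28; edgeR's adjusted p = 0.0449). Its adjusted p was 0.0505 with limma voom, and the call did not hold with either 24 h library left out. With 1 library left out, its log2 fold change ranged from -0.72 to -0.45. The gene shared 7.60% of its words with other transcripts. Rpl27 (chr11:101442298-101445529, + strand) had the lowest fold change, with 14.5 and 14.5 CPM at 24 h, against 32.8 and 19.8 CPM at 0 h. The groups did not overlap, but the 0 h libraries differed widely, and the log2 fold change of -0.85 ± 0.23 (SE) did not pass edgeR's test (adjusted p = 0.0752). Without 0 h replicate A, through which the gene met the minimum, it was -0.45. Rpl28 had 51.0 and 45.6 CPM at 24 h, against 80.7 and 60.0 CPM at 0 h, a log2 fold change of -0.54 (edgeR's adjusted p = 0.0907). Rpl3, which sits near the peptidyl transferase centre, had 93.7 and 90.3 CPM at 24 h, against 161 and 99.5 CPM at 0 h, a log2 fold change of -0.50 (edgeR's adjusted p = 0.186). With copies added it was -0.10, and 85.6% of its words were shared. The groups did not overlap for Rpl28 or Rpl3, and 0 h replicate A was the highest library for both. Without that library the log2 fold changes were -0.31 for Rpl28 and -0.11 for Rpl3.

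At the upper end stood Rpl39, a short protein of the exit tunnel encoded on the X chromosome. It had 41.4 and 45.97 CPM at 24 h, against 25.6 and 39.8 CPM at 0 h, and the log2 fold change was 0.42 ± 0.20 (SE; edgeR's adjusted p = 0.242). Rpl32 followed with 310 and 324 CPM at 24 h, against 225 and 289 CPM at 0 h, a log2 fold change of 0.31 (edgeR's adjusted p = 0.205). For both genes the 24 h libraries were above both 0 h libraries, and 0 h replicate A was the lowest. Without 0 h replicate A the log2 fold changes were 0.13 for Rpl39 and 0.14 for Rpl32. The other X-linked members were Rpl10, which completes the 60S subunit late in its assembly, and Rps4x. Rpl10 had 23.1 and 26.5 CPM at 24 h, against 21.1 and 29.3 CPM at 0 h, so the groups overlapped. Rps4x had 186 and 196 CPM at 24 h, against 182 and 175 CPM at 0 h, without overlap, and a log2 fold change of 0.10 (edgeR's adjusted p = 0.571).

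Of the 20 small subunit members, 0 passed edgeR's test, 1 had an unadjusted p under 0.05, and DESeq2 and limma voom called 1 and 0. The shares over all genes were 6.8%, 25.8%, 11% and 6.03% in the same order. Rps4l, annotated as a pseudogene and overlapping Tmtc1, had 252 and 240 CPM at 24 h, against 475 and 287 CPM at 0 h. The groups did not overlap, and the log2 fold change was -0.63 ± 0.21 (SE; edgeR's adjusted p = 0.126), or -0.22 without 0 h replicate A. Rps3a1 had 34.8 and 36.4 CPM at 24 h, against 27.0 and 31.4 CPM at 0 h, a log2 fold change of 0.29 (edgeR's adjusted p = 0.206), or 0.18 without 0 h replicate A. Rps3a1 was higher in each 24 h library than in either 0 h library, and it shared 71.0% of its words with other transcripts.

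Some ribosomal proteins are also known outside the ribosome. Rpl5 and Rpl11 bind and inhibit Mdm2, the ubiquitin ligase that degrades p53, when ribosome assembly is disturbed, and both fell under the minimum. Rpl5 had 17.9 and 19.5 CPM at 24 h, against 16.8 and 21.2 CPM at 0 h, and the groups overlapped. Rpl11 had 5.61 and 5.34 CPM at 24 h, against 8.26 and 7.61 CPM at 0 h, without overlap, and a log2 fold change of -0.53 (edgeR's adjusted p = 0.0924). Adding its copies gave 0.0041, so its direction depended on them. Rps27a, made as a fusion with ubiquitin, had 15.7 and 15.7 CPM at 24 h, against 11.0 and 16.6 CPM at 0 h, and the groups overlapped. Rpsa had 14.9 and 14.4 CPM at 24 h, against 32.1 and 14.1 CPM at 0 h, so its log2 fold change of -0.66 (edgeR's adjusted p = 0.261) rested on 0 h replicate A and was 0.05 without it.

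Paralogs were compared with their partners as a percentage of the pair's counts in each library, over 7 pairs. Rpl10l, a retrocopy of Rpl10, made up 56.2% and 54.0% of its pair at 24 h, against 70.2% and 58.7% at 0 h. Rpl39l made up 55.3% and 53.8% of its pair with Rpl39 at 24 h, against 65.9% and 59.5% at 0 h. In both pairs the 24 h libraries lay below both 0 h libraries. Rpl39l itself had 51.1 and 53.4 CPM at 24 h, against 49.6 and 58.3 CPM at 0 h, and its groups overlapped, while Rpl39 was higher at 24 h. Rps27l, a p53-induced paralog, made up 97.3% and 97.0% of its pair with Rps27 at 24 h, against 95.4% and 96.8% at 0 h. Rpl7l1 made up 42.4% and 41.1% of its pair with Rpl7 at 24 h, against 39.5% and 40.3% at 0 h. Rpl3l, the striated-muscle paralog of Rpl3, made up 2.98% and 3.14% at 24 h, against 1.97% and 2.38% at 0 h. In these 3 pairs the 24 h libraries lay above both 0 h libraries. Rpl3l itself had 2.88 and 2.93 CPM at 24 h, against 3.24 and 2.43 CPM at 0 h, and its groups overlapped, while Rpl3 was lower at 24 h. Rpl22l1 made up 5.005% and 5.497% of its pair with Rpl22 at 24 h, against 5.37% and 5.65% at 0 h, and Rpl36al made up 69.6% and 61.5% of its pair with Rpl36a at 24 h, against 73.8% and 63.2% at 0 h. The groups overlapped in both. In 5 of the 7 pairs the exact 2-sided permutation test gave p = 0.333, the smallest it can give, and in the other two 0.667, so no difference could pass 0.05. Rpl10 shared 85.4% of its words, Rps27 98.6%, Rpl36a 85.5%, Rpl3 85.6%, Rpl22l1 65.6% and Rpl7 53.3%, so the shares of those pairs also depend on how shared reads were counted.

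**Figure D4:**
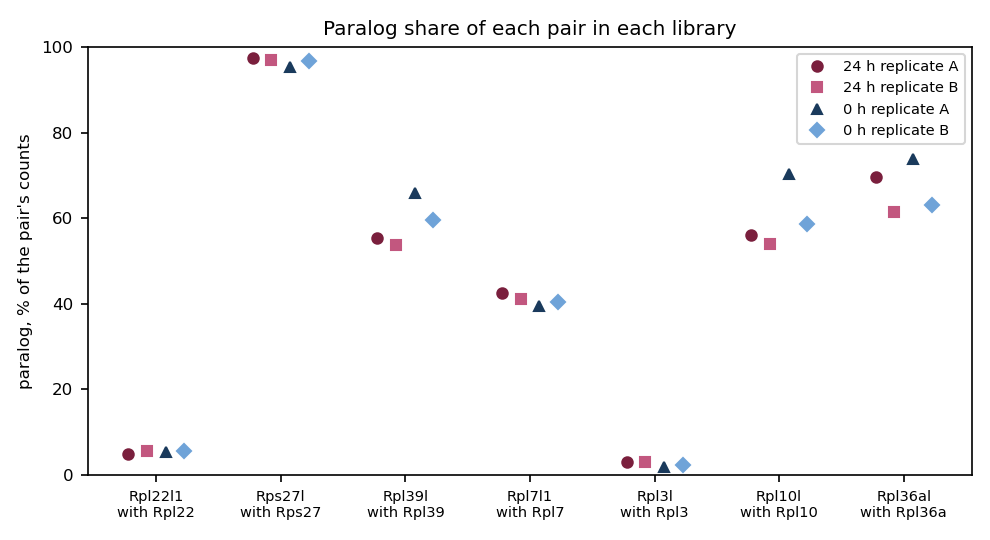
Percentage of each pair's counts that fell on the paralog, in each library, for 7 pairs; circles and squares are 24 h replicates A and B, and triangles and diamonds are 0 h replicates A and B. For Rpl10l and Rpl39l both 24 h points lie below both 0 h points, and 0 h replicate A is the highest.

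The 0 h replicates lay further apart than the 24 h replicates, and 0 h replicate A stood apart from the rest. Across members, the SD of the log2 difference between replicates A and B was 0.0857 at 24 h and 0.363 at 0 h. The level in 0 h replicate A was above all 3 other libraries in 22 members and below all 3 in 27, in all 89.1% of the members, against 69.0% of all genes tested. This library also stood apart in GC content. Over 17927 genes, the deviation of a gene's log2 level from its mean had a Pearson correlation with GC content of 0.484 in 0 h replicate A, against -0.165 and -0.227 in the 24 h libraries and -0.193 in 0 h replicate B.

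Among the 55 members, GC content and the fold change were related in the same way. Transcript GC content ran from 40.6% to 59.1%. The log2 fold change had a Pearson r of -0.475 and a Spearman rho of -0.509 with GC across members, and the log2 ratio of 0 h replicate A over B had an r of 0.523. The log2 ratio of 24 h replicate A over B, whose SD across members was 0.0857 against 0.363 for the 0 h ratio, also had an r of 0.505 and a rho of 0.538. With each library's trend in GC and length removed over all genes, the r of the fold change was -0.146. That step takes out a trend with GC by construction. With the 24 h mean set against 0 h replicate B alone, the r was -0.173. After that removal edgeR's test called 4 members higher and 4 lower at 24 h, where 25% of all genes were called, 11.7% higher and 13.3% lower. The 4 higher were Rplp1 (log2 fold change 0.26, adjusted p = 0.0394), Rpl7l1 (0.22, 0.0339), Rps3a1 (0.24, 0.0451) and Rps27l (0.23, 0.0430). The 4 lower were Rpl27 (-0.74, 0.0128), Rpl28 (-0.52, 0.0137), Rpl10l (-0.60, 0.00363) and Rps4l (-0.38, 0.0350). Of these, Rpl27 met the count minimum through 0 h replicate A. The part of GC content in these results was not tested beyond this comparison.

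**Figure D5:**
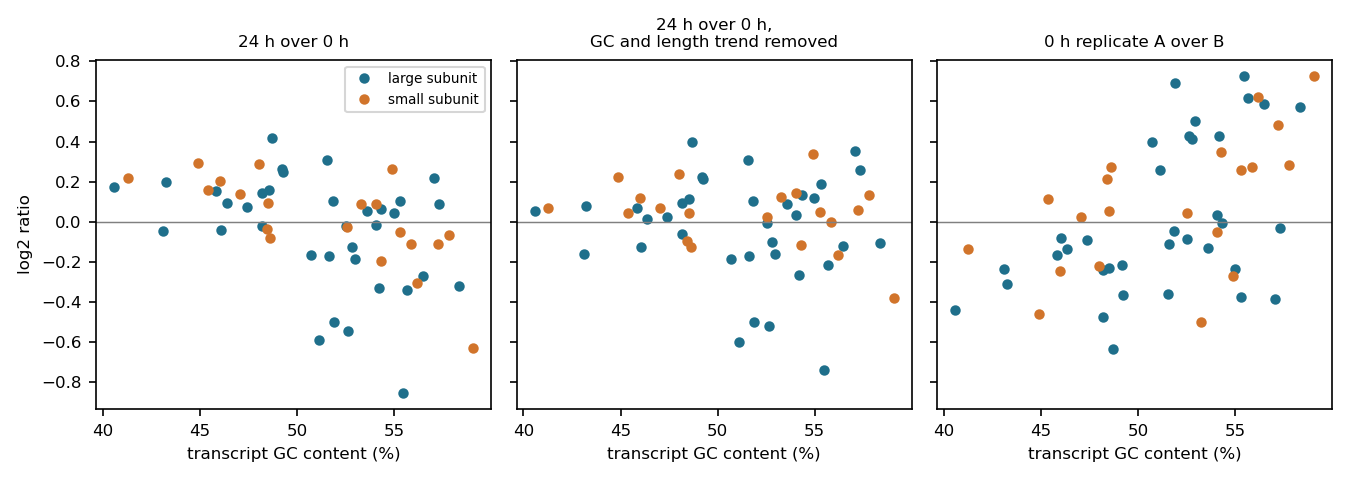
Log2 ratio against transcript GC content for the 55 members: 24 h over 0 h (left), the same with the GC and length trend removed (middle), and 0 h replicate A over B (right); blue marks large subunit genes and orange small subunit genes. The slope is downward on the left (r of -0.475), close to flat in the middle (r of -0.146) and upward on the right (r of 0.523). In the middle panel a trend with GC was taken out by construction.

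The genes that build, partner and regulate ribosomes were read from 4 lists. Of 55 ribosome biogenesis genes measured, 0 passed edgeR's test, 7 had an unadjusted p under 0.05 and were lower at 24 h, DESeq2 called 2 and limma voom 0. Over all genes these shares were 6.8% for edgeR's test, 12.6% lower at an unadjusted p under 0.05, 11% for DESeq2 and 6.03% for limma voom. The median log2 fold change of the list was -0.05. The 4 with the lowest p were Mrto4, Grwd1, Ppan and Tcof1, and in each of them both 24 h libraries lay below both 0 h libraries. Grwd1, known to chaperone the Rpl3 protein, had 50.1 and 47.7 CPM at 24 h, against 87.5 and 57.2 CPM at 0 h, a log2 fold change of -0.57 (edgeR's adjusted p = 0.127), or -0.23 without 0 h replicate A. Without that library it was -0.20 for Ppan and -0.17 for Tcof1, against -0.45 and -0.38 with it. Of 39 translation factors, 0 passed, 1 was higher and 5 were lower at an unadjusted p under 0.05, DESeq2 called 1 and limma voom 0, where the unadjusted shares over all genes were 13.2% higher and 12.6% lower. Eif4g1, the scaffold of the cap-binding complex, had 864 and 832 CPM at 24 h, against 1198 and 1029 CPM at 0 h, a log2 fold change of -0.39 (edgeR's adjusted p = 0.0765). The 11 factors whose mRNAs carry a TOP tract, which are taken from general knowledge, had a median of 0.02, beside 0.05 for the ribosomal protein members and -0.0067 for all genes.

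Of the 6 ribosomal proteins and ribosome partners outside the naming rule, 0 passed edgeR's test and 1 had an unadjusted p under 0.05 (25.8% of all genes), while DESeq2 called 1 and limma voom 0. Fau, which makes a small subunit protein fused to a ubiquitin-like protein, had 5.17 and 5.34 CPM at 24 h, against 5.79 and 7.12 CPM at 0 h. The groups of Fau did not overlap, with a log2 fold change of -0.30 ± 0.18 (SE; edgeR's adjusted p = 0.333), or -0.14 without 0 h replicate B. Rack1, a stable protein of the 40S head, had 1951 and 1881 CPM at 24 h, against 2274 and 1813 CPM at 0 h. The groups of Rack1 overlapped.

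A list of 26 genes held regulators of ribosomal protein mRNAs together with the p53-linked genes Mdm2, Mdm4 and Trp53. On this list 1 gene, the p53-linked Mdm2, rose and 1 fell, a share of 7.69% beside 6.8% of all genes. Mdm2 had 424 and 434 CPM at 24 h, against 258 and 269 CPM at 0 h. Both 24 h libraries were well above both 0 h libraries, with a log2 fold change of 0.70 ± 0.09 (SE; edgeR's adjusted p = 0.0109). Zbtb7a, a zinc finger repressor, had 32.2 and 33.9 CPM at 24 h, against 60.4 and 48.0 CPM at 0 h. It fell by 0.71 ± 0.14 on the log2 scale (SE; edgeR's adjusted p = 0.0318), without overlap. Neither call held with 1 library fewer at 24 h, in fits that take their spread from the 0 h libraries alone. With 1 library of either group left out, the log2 fold change ranged from 0.67 to 0.73 for Mdm2. For Zbtb7a it ranged from -0.87 to -0.54. Mdm4, the p53-binding relative of Mdm2, had 474 and 490 CPM at 24 h, against 299 and 389 CPM at 0 h, a log2 fold change of 0.49 (edgeR's adjusted p = 0.0821), or 0.31 without 0 h replicate A. Gabpb1, a subunit of the ETS factor GABP, had 119 and 120 CPM at 24 h, against 88.4 and 96.7 CPM at 0 h, a log2 fold change of 0.37 (edgeR's adjusted p = 0.0841).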

How the data were processed

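The authors deposited raw counts of reads for each Ensembl gene. The libraries were made with a stranded mRNA kit and sequenced from one end over 50 nt, per the labels' protocols. TopHat2, HTSeq, DESeq and the build mm10 are named per the submitters' processing notes, and the strand setting is not given in the sources used here. Symbols, GC content and transcript lengths came from GENCODE M21 (GRCm38, the assembly of mm10). The 563 identifiers without a symbol held 0.107% of the counts.

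Genes were filtered with filterByExpr (minimum count 10, minimum total 15), scaled by TMM and tested 2-sided over all 4 libraries by quasi-likelihood (legacy=TRUE) in edgeR 4.0.16 under R 4.3.3, adjusted by Benjamini-Hochberg over 18005 genes. CPM and TPM were computed here from the deposited counts. DESeq2 1.42.0, limma voom 3.58.1, other scalings and filters, a replicate block, removal of the GC and length trend, and each library left out served as alternatives. With 1 library in a group, that library was assumed to vary like the others. Shared 50-base words were counted on both strands of GENCODE M21 transcripts, and a pseudogene's counts were added to the gene with which it shared most words (at least 50). The members and lists were chosen with earlier results of these data known. Genes named are the markers, stalk, X-linked, p53-linked and paralog genes, members past the test, the 5 highest and lowest in fold change and in TPM, and up to 4 of each other list by p. Of these, 3 are not reported here.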

Additional observations from a re-analysis of the deposited data

How the results depend on the processing

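Of 752 values of the 47 named genes under the alternatives, 588 kept their direction and their side of the threshold, 129 kept their direction and passed it, 7 kept their direction and lost it, and 28 changed direction.

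Over all genes, the count of calls was 1225. It was 2589 with no filter, 3253 with the replicate block, 4475 with the GC and length trend removed, 5476 with both that removal and the replicate block, 1987 with DESeq2, and between 505 and 9416 with 1 library left out. In the same order, the members called were 5, 6, 8, 14 and 4, in place of 1, with 0 under limma voom, 0 among the family genes of at least 10000 counts, and 0 to 45 with 1 library left out. The biogenesis list gave 4, 4, 10, 15 and 2, in place of 0, and 0 to 42 with 1 library left out. The translation factors gave 3, 3, 10, 11 and 1, in place of 0, and 0 to 28. The genes outside the naming rule gave 1, 1, 1, 2 and 1, in place of 0, and 0 to 4. The list of regulators and p53-linked genes gave 5, 6, 11 and 13 in the first 4 settings, in place of 2, and 0 to 20 with 1 library left out. The fits with 1 library in a group gave the most and the fewest calls. Such a fit takes its spread from the other group's pair alone. The fewest calls came where the 0 h pair set the spread, and the most where the 24 h pair did. Across members the 0 h pair was the wider one (SD of the log2 ratio of A over B 0.363, against 0.0857 for the 24 h pair). The ranges of calls with 1 library left out thus mix 2 different measures of spread. How much of each range this accounts for was not tested.

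The difference in the members' share of all counts, 0.0913 percentage points, was 0.0080 without the 3 members with most counts, -0.0062 among members with at most 10% of words shared, 0.147 with copies added and 0.0778 to 0.105 with 1 library left out. The settings on shared words and copies were chosen after seeing the data. The difference in the subunit ratio, 0.0706, was -0.0276 and -0.0657 in the first 2 of these settings and -0.0256 to 0.167 with 1 library left out. In those first 2 settings the groups of the ratio did not overlap, and with copies added they overlapped. With 1 library left out, the paralog differences ranged from -15.1 to -3.56 points for Rpl10l, -11.4 to -4.95 for Rpl39l, -0.505 to -0.0122 for Rpl22l1, -8.26 to 2.36 for Rpl36al, 0.678 to 1.08 for Rpl3l, 1.21 to 2.50 for Rpl7l1 and 0.338 to 1.78 for Rps27l.

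The log2 fold changes below had the other sign in the main test. With upper quartile scaling Rpl10 was 0.017, Rpl31 0.0042 and Rpl5 0.017. With library size alone Rpl10 was 0.031, Rpl31 0.017, Rpl39l 0.0086 and Rpl5 0.031. With the GC and length trend removed Rps15 was 0.13, and with the replicate block as well it was 0.13. With copies added Rpl11 was 0.0041, Rpl31 0.17, Rpl36a 0.41 and Rpl5 0.14. With 1 library left out, the log2 fold changes ranged from -0.25 to 0.078 for Rack1, -0.24 to 0.23 for Rpl10, -0.033 to 0.40 for Rpl22l1, -0.13 to 0.017 for Rpl31, -0.16 to 0.070 for Rpl39l, -0.16 to 0.26 for Rpl3l, and -0.18 to 0.15 for Rpl5. They ranged from -0.42 to 0.084 for Rplp0, -0.068 to 0.16 for Rplp2, -0.20 to 0.083 for Rps15, -0.079 to 0.51 for Rps27a and -1.13 to 0.050 for Rpsa.

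Libraries were not paired by letter. Over all genes tested, deviations of libraries with the same letter correlated at 0.0616, under 0.1. This correlation was not computed for the members alone. Among them the log2 ratio of A over B rose with GC content at both times (r of 0.505 at 24 h and 0.523 at 0 h). Whether the letter matters for the members was not tested. The labels tie no letter to a clone or day, so the values with the replicate block above say only how a shared letter moves the count. Counts of shared words against the genome were not run, since the genome sequence was not used here. Total counts of 46031578 to 52412844 per library leave single members with a mean of 1006 counts or more.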
